A study of Homo sapiens with 6 samples.

Results

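Genes of the NRF2 oxidative stress response were examined in LoVo cells, a line established from a human colorectal cancer, after knockdown of the splicing factor SRSF11. The genes were taken by symbol as classical targets of the transcription factor NRF2 together with NFE2L2, the gene that encodes NRF2, and they make up 9 of the 58735 genes in the count table. The 9 genes are NFE2L2, GCLC, GCLM, SLC7A11, TXNRD1, SRXN1, NQO1, AKR1B10 and AKR1C1. They and the pathway lists read below were chosen with earlier results of these data known, which limits comparisons with all tested genes. Each of the 9 had at least 10 counts in at least 3 libraries and was tested among 15801 genes that passed this filter.

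NRF2 is held at a low level in unstressed cells by KEAP1, which presents it to a CUL3 ubiquitin ligase for degradation. Oxidants and electrophiles modify KEAP1, and NRF2 then accumulates in the nucleus, pairs with a small MAF protein (MAFF, MAFG or MAFK) and binds antioxidant response elements near its target genes. The targets build glutathione, recycle thioredoxin and peroxiredoxins, and reduce quinones and reactive carbonyls.

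The cells were transfected with a negative control siRNA (si-NC, 3 libraries) or with an SRSF11-directed siRNA (si-SRSF11, 3 libraries), and polyadenylated RNA was sequenced on an Illumina NovaSeq instrument as 150 bp paired-end reads. All 6 libraries come from the same cell line, and no untransfected cells were analysed here. The study describes 3 siRNAs against SRSF11, and its text does not say which of them was sequenced, nor how long after transfection RNA was collected. The study describes its RNA samples as independent pairs, but the labels do not say whether they came from separate cultures. The p-values therefore set group differences against the variation between these libraries, which may not include variation between cultures.

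The libraries held 14369525 to 15514404 counts in si-NC and 15688702 to 16685719 in si-SRSF11. Counts were scaled to counts-per-million values (CPM) with edgeR's TMM factors, which correct for library composition and lay between 0.979 and 1.02. Each log2 fold change below is si-SRSF11 over si-NC from edgeR's quasi-likelihood test, with its standard error (SE) and a p-value adjusted over all 15801 genes by the Benjamini-Hochberg method, and a gene is called at an adjusted p under 0.05. SRSF11 itself stood at 87.6, 84.3 and 87.5 CPM in the si-NC libraries and at 50.4, 48.5 and 49.5 CPM in the si-SRSF11 libraries, which left 57.2% of its level. The paper in 1 place brackets these library names with the opposite conditions, which would turn the sign of every fold change. The deposited labels were used, and SRSF11 was lower in each library labelled si-SRSF11. All 10 colorectal epithelial markers checked reached 10 counts in a library, although KRT20 and CEACAM5 were low, and their summed level was 5570 to 5896 CPM in si-NC and 5663 to 6014 CPM in si-SRSF11. Of the fibroblast, leukocyte and endothelial markers 2 each reached 10 counts, the erythroid markers did not, and DCN, LUM, PTPRC and KDR were at 0 in every library. The summed level of the 6 fibroblast markers was 19.7 to 23.2 CPM in si-NC and 24.7 to 28.97 CPM in si-SRSF11, that of the 6 leukocyte markers 2.90 to 3.65 and 4.54 to 4.92 CPM, and that of the 4 endothelial markers 1.48 to 2.57 and 0.797 to 2.05 CPM. Across the transcriptome 24.6% of tested genes were called, 13.2% (2081) higher and 11.4% (1805) lower after SRSF11 knockdown. With library size alone as the scaling, 1585 genes were called higher and 2289 lower.

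NRF2 binds antioxidant response elements. The core of this element was searched as the letters TGACNNNGC on both strands of the RefSeq promoters (GRCh38.p14), from 250 bases before to 50 bases after each annotated start. Of the 9 genes, 7 matched the promoter table, with 9 promoters between them, and SLC7A11 and AKR1B10 did not match. The core occurred in 3 of these 9 promoters (33.3%), which belong to GCLM and TXNRD1, and in 4687 of all 35116 promoters (13.3%). The AP-1-like letters TGANTCA, which can lie within or beside such an element, occurred in none of the 9 promoters and in 7.71% of all promoters. A match of letters describes the sequence and is not evidence of binding. A stretch around a match is shown for GCLM and for TXNRD1, the 2 genes of the 7 with a match. Within the windows searched, the promoters of NQO1, GCLC, SRXN1, AKR1C1 and NFE2L2 held no match, and the first 4 of these genes fell as GCLM and TXNRD1 did. Sequence outside these windows was not searched, so elements farther from a start would be missed. Each stretch shown is written 5′ to 3′ on the strand of the gene with the 9 matching bases in capitals.
GCLM promoter, chr1:93909438-93909482, minus strand: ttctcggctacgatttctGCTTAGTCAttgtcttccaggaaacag
TXNRD1 promoter, chr12:104215662-104215706, plus strand: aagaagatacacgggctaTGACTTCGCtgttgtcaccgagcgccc
In GCLM the match began 34 bases before the RefSeq start and read TGACTAAGC on the opposite strand. In TXNRD1 the match shown began 99 bases before its upstream start, and a further match began 8 bases before the same start. A downstream TXNRD1 start had a match 102 bases before it.

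After SRSF11 knockdown, 7 of the 9 genes fell, 1 rose and 1 was not called. The 7 that fell were NQO1, GCLC, GCLM, TXNRD1, SRXN1, SLC7A11 and AKR1C1, by 10.4% to 49.9% of the si-NC level, beside 11.4% of all tested genes that fell. The gene that rose was NFE2L2, by 10.1%, beside 13.2% of all tested genes that rose, and AKR1B10 was not called. In these bulk libraries, fewer cells that express a gene and less of its RNA per cell cannot be told apart. The median log2 fold change of the 9 genes was -0.36, beside 0.00 over all tested genes. None of the 9 passed an absolute log2 fold change over 1 with an adjusted p under 0.05, which 1.09% of tested genes did, and SRXN1 lay just inside that limit at -0.998. The groups did not overlap in CPM for any of the 9, with 8 genes lower in every si-SRSF11 library and NFE2L2 higher in every one. Such separation was found downward for 18.9% and upward for 20.0% of all tested genes, and an exact two-sided permutation test gives p = 0.10 for each, the smallest that 3 libraries against 3 allow. The 9 genes together took 0.296% to 0.303% of all counts in si-NC and 0.226% to 0.228% in si-SRSF11. The share from the mitochondrial genome moved in the other direction, from 7.0% to 7.25% in si-NC to 8.29% to 8.51% in si-SRSF11, and the part of this share and of the marker sums above in the 9-gene result was not tested.

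**Figure D1:**
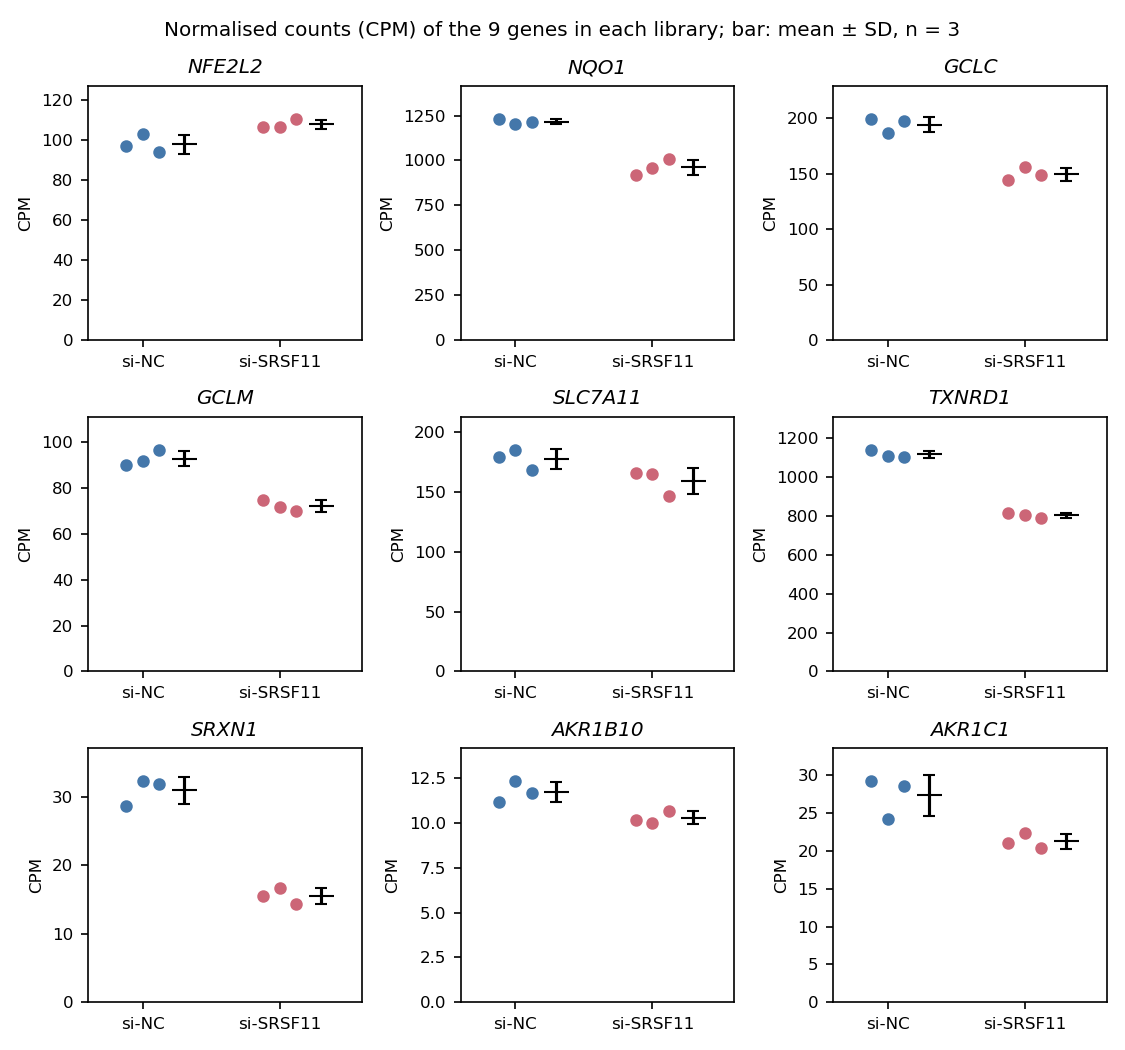
Level of each of the 9 genes in CPM by library, with 3 si-NC and 3 si-SRSF11 points a gene and the mean and SD of each group. The si-SRSF11 points lie below the si-NC points in 8 panels and above them in the NFE2L2 panel.

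NFE2L2 (ENSG00000116044, chromosome 2 of GRCh38, 177227595 to 177392697, minus strand) encodes NRF2 itself. Its level was 96.8, 103 and 93.8 CPM in the si-NC libraries and 106, 107 and 110.3 CPM in the si-SRSF11 libraries. The mean moved from 97.9 ± 4.72 (SD, n = 3) to 107.7 ± 2.26 CPM (SD, n = 3), a log2 fold change of 0.14 (SE 0.0505) with an adjusted p of 0.049 from edgeR. This call sat at the threshold and was lost in 12 of 15 alternative settings, among them DESeq2 (adjusted p = 0.11) and limma-voom (adjusted p = 0.052). Of the 6 settings that left out 1 library, it held only without si-NC replicate 2 (0.18, adjusted p = 0.037). On the transcripts-per-million scale (TPM), on which counts are divided by gene length and every library is set to the same total, its group ranges overlapped, at 47.0 to 51.6 in si-NC and 50.4 to 51.7 in si-SRSF11. NFE2L2 shares 20.9% of its exon bases with other annotated genes, among them AC019080.1 on the same strand and AGPS on the opposite strand, and no source used here says whether reads were counted by strand.

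The partners and inhibitors of NRF2 were read from a list of 16 regulators, all of which were tested. Apart from NFE2L2, 6 of 15 regulators fell (40%) and 1 rose (6.67%), beside 11.4% and 13.2% of all tested genes. Their median log2 fold change was -0.16. The 3 small MAF genes, whose products pair with NRF2 on DNA, all fell. MAFF went from 123 ± 1.31 to 88.0 ± 4.66 CPM (SD, n = 3), MAFG from 181 ± 5.20 to 133.6 ± 5.34 CPM and MAFK from 127.7 ± 0.690 to 92.6 ± 6.09 CPM. Their log2 fold changes were -0.48, -0.44 and -0.46, with adjusted p of 4.3e-07, 7.5e-07 and 8.5e-07 from edgeR. MAFK shares 18.1% of its exon bases with TMEM184A on the opposite strand.

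SQSTM1, which encodes the autophagy receptor p62 that can bind KEAP1 and is itself an NRF2 target, stood at 908, 897 and 949.5 CPM in si-NC and at 598, 555 and 609.7 CPM in si-SRSF11. It fell by 0.64 on the log2 scale (SE 0.0464, adjusted p = 1.5e-09 from edgeR). SQSTM1 shares 22% of its exon bases with other annotated genes on the opposite strand, MRNIP with 20.7% among them. NFE2L3, a relative of NFE2L2, was the regulator that rose, with a log2 fold change of 0.29 (adjusted p = 0.0025). KEAP1, the inhibitor of NRF2, was not called, at 94.2 ± 5.16 CPM in si-NC and 100.2 ± 4.75 CPM in si-SRSF11 (SD, n = 3, log2 fold change 0.09, adjusted p = 0.24). The KEAP1 to NFE2L2 ratio of TPM within a library overlapped between the groups, at 1.53 ± 0.155 in si-NC and 1.48 ± 0.0398 in si-SRSF11 (SD, n = 3).

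GCLC and GCLM encode the catalytic and the modifier subunit of glutamate-cysteine ligase, the rate-limiting enzyme of glutathione synthesis, and both fell by a similar share. GCLC (ENSG00000001084, chromosome 6, 53497341 to 53616970, minus strand) stood at 199, 186 and 197 CPM in si-NC and at 144, 156 and 149 CPM in si-SRSF11. Its log2 fold change was -0.38 (SE 0.0489, adjusted p = 6.7e-06 from edgeR). GCLM (ENSG00000023909, chromosome 1, 93885205 to 93909456, minus strand), whose promoter holds the match shown above, stood at 90.1, 91.9 and 96.6 CPM in si-NC and at 74.9, 71.7 and 69.97 CPM in si-SRSF11. Its log2 fold change was -0.36 (SE 0.0530, adjusted p = 2.6e-05 from edgeR). In both genes every si-SRSF11 library lay below every si-NC library.

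The GCLM to GCLC ratio of TPM was 0.723, 0.787 and 0.783 in si-NC and 0.830, 0.734 and 0.751 in si-SRSF11, so the balance of the 2 subunit transcripts overlapped between the groups. SLC7A11 (ENSG00000151012, chromosome 4, 138164097 to 138242349, minus strand) encodes the light chain of the cystine importer that supplies cysteine for glutathione. It stood at 179, 185 and 168.5 CPM in si-NC and at 166, 165 and 146 CPM in si-SRSF11. The groups were separated by a narrow gap, between 168.5 and 166 CPM, and the log2 fold change was -0.16 (SE 0.0542, adjusted p = 0.035 from edgeR). The call was lost without si-NC replicate 1 (-0.15, adjusted p = 0.11), without si-NC replicate 2 (-0.13, adjusted p = 0.16) and without si-SRSF11 replicate 3 (-0.11, adjusted p = 0.12). SLC3A2, its heavy-chain partner, fell by 0.20 on the log2 scale (adjusted p = 0.0029 from edgeR), and the SLC7A11 to SLC3A2 ratio of TPM overlapped between the groups at 0.124 ± 0.00920 and 0.128 ± 0.0146 (SD, n = 3).

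TXNRD1 and SRXN1 serve the thioredoxin and peroxiredoxin cycle, and they had the 2 largest declines of the 9 genes. TXNRD1 (ENSG00000198431, chromosome 12, 104215779 to 104350305, plus strand) encodes cytosolic thioredoxin reductase, which uses NADPH to regenerate thioredoxin. It stood at 1138, 1106 and 1103 CPM in si-NC and at 814, 806 and 789 CPM in si-SRSF11, with a gap between the groups far wider than the spread within either. Its log2 fold change was -0.47 (SE 0.0415, adjusted p = 2.8e-08 from edgeR), a loss of 28.0%.

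SRXN1 (ENSG00000271303, chromosome 20, 646615 to 653370, minus strand) encodes sulfiredoxin, which repairs over-oxidized peroxiredoxins. It had 416, 490 and 495 counts in si-NC and 242, 270 and 234 counts in si-SRSF11, or 28.7, 32.2 and 31.8 against 15.5, 16.6 and 14.4 CPM. Its log2 fold change was -0.998 (SE 0.0883, adjusted p = 3.1e-08 from edgeR), a loss of 49.9%, and it ranked 89 among the 1805 genes that fell when these were ordered by the size of the change. SRXN1 shares 85.0% of its exon bases with AL121758.1 on the same strand, which had 2, 7 and 0 counts in si-NC and 1, 3 and 2 in si-SRSF11. How reads in shared bases were assigned is not given in the sources used here.

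**Figure D2:**
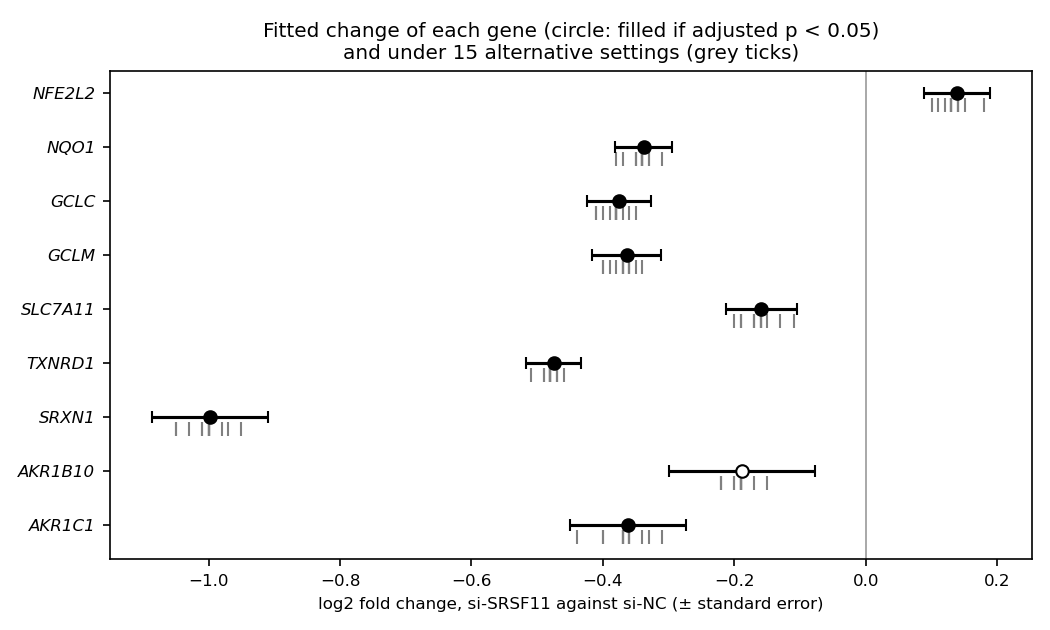
Log2 fold change of the 9 genes, si-SRSF11 over si-NC, with bars of 1 standard error from edgeR's quasi-likelihood test, a filled circle for a called gene and grey ticks for the 15 alternative settings. SRXN1 lies lowest at -0.998, TXNRD1 next at -0.47, and NFE2L2 is the gene above 0 at 0.14.

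Partner transcripts of these 2 enzymes were read beside them. TXN, the thioredoxin that TXNRD1 reduces, was not called (log2 fold change 0.13, adjusted p = 0.12), except without si-SRSF11 replicate 2 (0.20, adjusted p = 0.014). The TXNRD1 to TXN ratio of TPM was 0.976, 0.921 and 0.902 in si-NC and 0.620, 0.688 and 0.548 in si-SRSF11. PRDX1, a peroxiredoxin that sulfiredoxin repairs, rose from 318 ± 7.85 to 409 ± 13.1 CPM (SD, n = 3, log2 fold change 0.36, adjusted p = 5.1e-06 from edgeR). PRDX1 shares 24.9% of its exon bases with MMACHC on the opposite strand. The related peroxiredoxins PRDX2 and PRDX3, named after their values were seen, were not called (log2 fold changes 0.10 and 0.11, adjusted p = 0.14 and 0.09). The SRXN1 to PRDX1 ratio of TPM was 0.0495, 0.0579 and 0.0572 in si-NC and 0.0219, 0.0232 and 0.0191 in si-SRSF11. Both ratios were lower in every si-SRSF11 library than in any si-NC library.

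**Figure D3:**
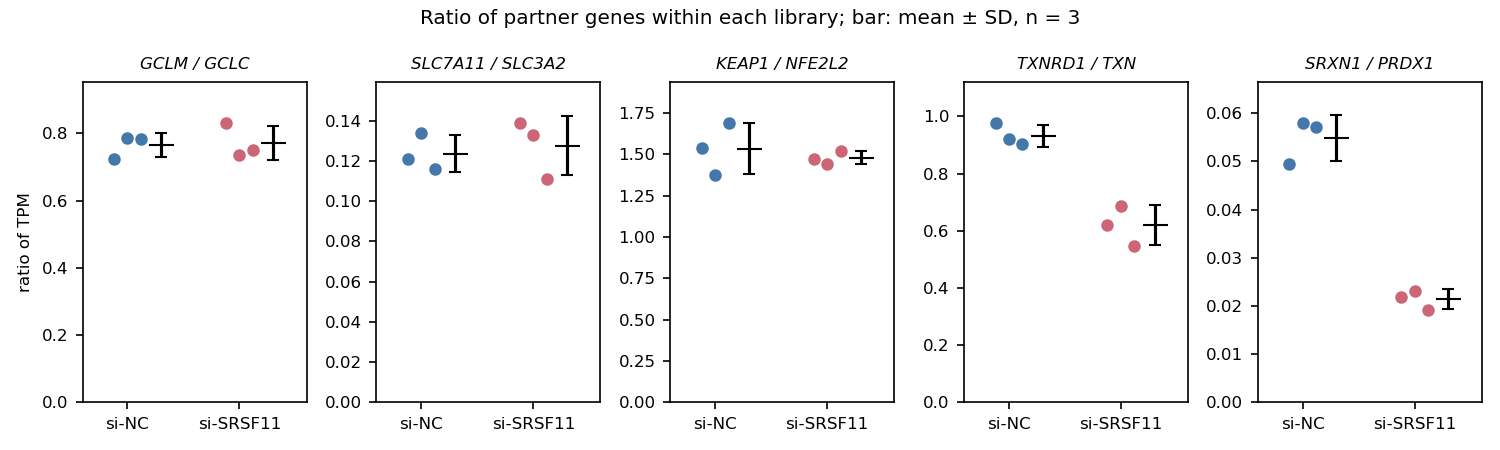
Ratio of the TPM of 2 partner genes within each library, with 3 si-NC and 3 si-SRSF11 points for each pair and the mean and SD of each group. The TXNRD1 to TXN and SRXN1 to PRDX1 ratios separate the groups, while GCLM to GCLC, SLC7A11 to SLC3A2 and KEAP1 to NFE2L2 overlap.

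NQO1 (ENSG00000181019, chromosome 16, 69706996 to 69726951, minus strand) encodes a quinone reductase that uses NADPH or NADH and is a standard marker of NRF2 activity. It was the most abundant of the 9 transcripts per length and stood at 1229.6, 1201 and 1215 CPM in si-NC and at 921, 958 and 1006 CPM in si-SRSF11. Its log2 fold change was -0.34 (SE 0.0434, adjusted p = 5.6e-06 from edgeR), a loss of 20.9%. AC092115.2, on the opposite strand, covers 17.7% of the exon bases of NQO1 and had 0 counts in every library.

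The aldo-keto reductases AKR1B10 and AKR1C1 reduce carbonyl compounds, and AKR1C1 also acts on steroids. AKR1C1 (ENSG00000187134, chromosome 10, 4963253 to 4983283, plus strand) stood at 29.2, 24.2 and 28.6 CPM in si-NC and at 21.0, 22.3 and 20.4 CPM in si-SRSF11. Its log2 fold change was -0.36 (SE 0.0879, adjusted p = 0.004 from edgeR). AKR1B10 (ENSG00000198074, chromosome 7, 134527592 to 134541408, plus strand) stood at 11.2, 12.3 and 11.6 CPM in si-NC and at 10.2, 9.97 and 10.7 CPM in si-SRSF11. These groups were separate in CPM, while the raw counts overlapped, at 162 to 187 a library in si-NC and 159 to 174 in si-SRSF11. The change was not called (log2 fold change -0.19, SE 0.111, adjusted p = 0.23, unadjusted p = 0.10 from edgeR).

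AKR1C2, a close copy of AKR1C1, had the opposite sign. It had 67, 90 and 89 counts in si-NC and 120, 121 and 107 in si-SRSF11 (log2 fold change 0.41, SE 0.151, adjusted p = 0.049 from edgeR), and this call was lost in 14 of 15 alternative settings, with an adjusted p from 0.041 to 0.21 over the 15. It was lost in 5 of the 6 settings that left out 1 library, and without si-NC replicate 1 the log2 fold change was 0.31 (adjusted p = 0.21). Of the 100-nt windows along the longest AKR1C1 transcript, 17.2% also occur in AKR1C2. Of those along the longest AKR1C2 transcript, 31.1% occur in AKR1C1, so the split of reads between these 2 genes is uncertain.

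By TPM, NQO1 was the highest of the 9 genes in si-NC at 1123 ± 19.7 TPM, followed by TXNRD1 at 500.3 ± 11.6, GCLC at 67.5 ± 2.65, SLC7A11 at 55.4 ± 2.67, GCLM at 51.5 ± 1.65 and NFE2L2 at 49.2 ± 2.32 (SD, n = 3). SRXN1 at 34.4 ± 1.95, AKR1B10 at 20.2 ± 0.885 and AKR1C1 at 9.38 ± 0.964 TPM closed the order (SD, n = 3). Neighbours whose ranges overlapped were SLC7A11 with GCLM and GCLM with NFE2L2. NQO1 ranked 90 and TXNRD1 239 among the 15801 tested genes over all libraries, while AKR1C1 ranked 9581.

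In si-SRSF11 the order was NQO1 at 838 ± 19.0, TXNRD1 at 339.9 ± 13.1, NFE2L2 at 51.1 ± 0.633, GCLC at 49.1 ± 1.68, SLC7A11 at 46.8 ± 4.10 and GCLM at 37.8 ± 2.18 TPM (SD, n = 3). AKR1B10 at 16.7 ± 0.466, SRXN1 at 16.3 ± 1.36 and AKR1C1 at 6.88 ± 0.386 TPM followed (SD, n = 3). NFE2L2 overlapped with GCLC, GCLC with SLC7A11, and AKR1B10 with SRXN1. On this scale NFE2L2 moved from the sixth place to the third, and SRXN1 moved behind AKR1B10. The gene lengths used count every exon base over all transcripts of a gene. They are 5979 bases for NFE2L2, whose longest transcript has 2853, and 9645 for SLC7A11, whose longest transcript has 9645. The order between genes therefore depends on these lengths, and other lengths were not tested. The mitochondrial share given above enters the TPM total, and its part in the TPM values was not tested.

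**Figure D4:**
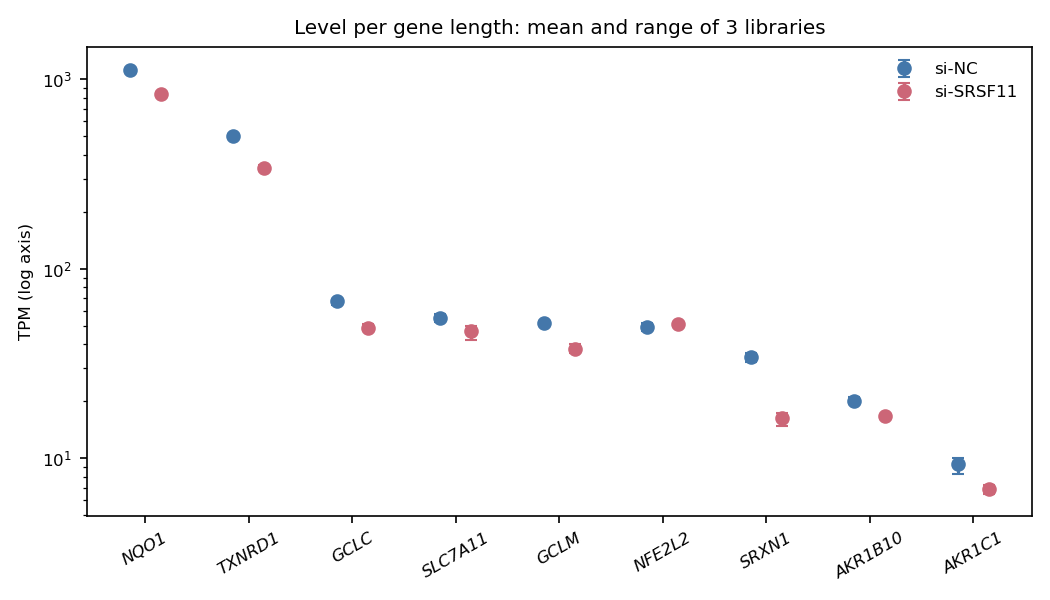
Level of the 9 genes in TPM on a log axis, as the mean of 3 libraries in si-NC and in si-SRSF11 with bars for their range. With the gene lengths used, NQO1 and TXNRD1 stand above the other 7 genes in both groups, and AKR1C1 stands lowest.

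The other genes of the pathway were read from lists that share some genes, and 131 of their 141 genes outside the 9 were tested. Of 40 tested NRF2 targets outside the 9 genes, 15 fell (37.5%) and 9 rose (22.5%), beside 11.4% and 13.2% of all tested genes. Their median log2 fold change was -0.10. OSGIN1, an oxidative stress response gene, fell from 52.4 ± 2.18 to 27.1 ± 1.86 CPM (SD, n = 3, log2 fold change -0.95, adjusted p = 1.9e-09 from edgeR). OSGIN1 shares 13.9% of its exon bases with AC009119.2 on the same strand, and its longest transcript shares 7.42% of its 100-nt windows with that gene. SLC48A1, a heme transporter, fell by 0.40 on the log2 scale (adjusted p = 5.8e-06). HMOX1, the heme-degrading enzyme and a textbook NRF2 target that was chosen for mention after its values were seen, went from 77.2 ± 3.67 to 57.8 ± 4.83 CPM (SD, n = 3, log2 fold change -0.42, adjusted p = 3.7e-05). ALDH3A1, an aldehyde dehydrogenase, rose with a log2 fold change of 0.46 (adjusted p = 1.5e-05), as did PRDX1. ABCC2, an efflux transporter also chosen after its values were seen, had the largest rise on the list (log2 fold change 0.97, SE 0.189, adjusted p = 6.5e-04), from 39 to 53 counts in si-NC and 81 to 104 counts in si-SRSF11.

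Among 33 tested glutathione genes outside the 9, 7 fell (21.2%) and 5 rose (15.2%), beside 11.4% and 13.2% of all tested genes. Their median log2 fold change was -0.06. GSR, which reduces oxidized glutathione, and GLO1, a glyoxalase, fell by 0.25 and 0.24 on the log2 scale (adjusted p = 6.6e-04 and 7.0e-04). MGST2, a microsomal glutathione transferase, and CHAC1, which degrades glutathione, rose with log2 fold changes of 0.54 and 0.22 (adjusted p = 2.3e-04 and 0.0057). Among 19 tested thioredoxin genes outside the 9, 2 fell (10.5%) and 3 rose (15.8%), near the 11.4% and 13.2% of all tested genes (median 0.07). TXNIP, the thioredoxin-binding protein, fell from 612 ± 6.14 to 411 ± 7.33 CPM (SD, n = 3, log2 fold change -0.58, adjusted p = 3.0e-09), and TXNRD2, the mitochondrial reductase, fell by 0.27 on the log2 scale (adjusted p = 0.013), a call lost without si-NC replicate 3 (-0.20, adjusted p = 0.11). PRDX4, a peroxiredoxin of the endoplasmic reticulum, and MSRB1, a methionine sulfoxide reductase, rose with log2 fold changes of 0.50 and 0.31 (adjusted p = 1.3e-06 and 6.9e-04).

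Of 23 genes of NADPH supply and use besides NQO1, 3 fell (13%) and 2 rose (8.7%), beside 11.4% and 13.2% of all tested genes. Their median log2 fold change was -0.01. Malic enzyme ME1 and MTHFD1L fell by 0.25 and 0.23 on the log2 scale (adjusted p = 3.9e-04 and 0.0016). ME2 fell by 0.17 on the log2 scale (adjusted p = 0.011), a call lost without si-NC replicate 1 (adjusted p = 0.051) or 3 (adjusted p = 0.06). PGD, of the pentose phosphate pathway, and NADK2, a mitochondrial NAD kinase, rose with log2 fold changes of 0.18 and 0.25 (adjusted p = 0.0077 and 0.020). PGD was lost without si-NC replicate 2 (adjusted p = 0.06), and NADK2 without si-NC replicate 2 or 3 or si-SRSF11 replicate 2 or 3 (adjusted p = 0.051, 0.097, 0.054 and 0.097).

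Of 6 further tested aldo-keto reductases, 2 fell (33.3%) and 1 rose (16.7%), beside 11.4% and 13.2% of all tested genes. Their median log2 fold change was -0.12. AKR7A2 and AKR1A1 fell by 0.17 and 0.15 on the log2 scale (adjusted p = 0.033 and 0.039), and AKR1C2 rose. AKR7A2 was lost without si-NC replicate 1 or 2 or si-SRSF11 replicate 2 (adjusted p = 0.15, 0.1 and 0.21). AKR1A1 was lost when any library but si-SRSF11 replicate 3 was left out (adjusted p from 0.057 to 0.21). Of 12 other antioxidant enzymes 3 rose (25%) and 2 fell (16.7%), beside 13.2% and 11.4% of all tested genes. PON2, SOD1 and CAT rose (log2 fold changes 0.43, 0.24 and 0.21), and SELENOT and SELENOP fell (log2 fold changes -0.24 and -0.46). The adjusted p were 1.0e-06, 0.0034, 0.0046, 0.0024 and 0.040, and SELENOP was lost without 5 of the 6 libraries in turn (adjusted p from 0.084 to 0.17). SELENOP shares 36.1% of its exon bases with other annotated genes on the opposite strand, CCDC152 with 25.5% among them. Over all lists outside the 9 genes, 34 of 131 tested genes fell (26.0%) and 19 rose (14.5%), with a median of -0.04, beside 11.4%, 13.2% and 0.00 over all tested genes.

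**Figure D5:**
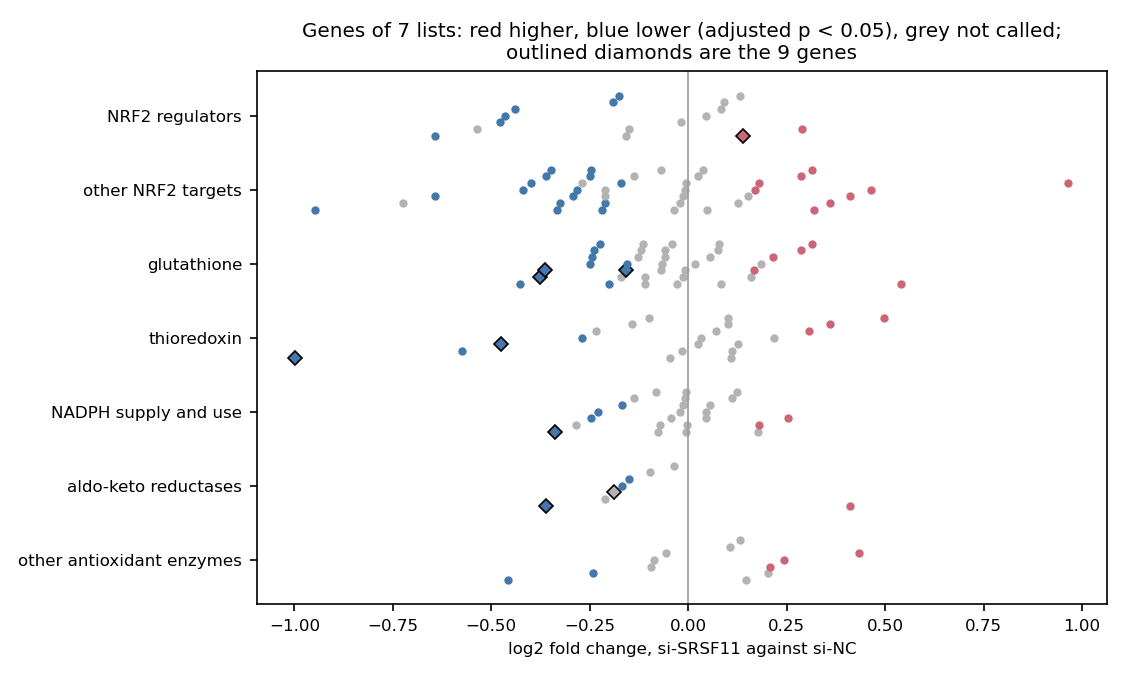
Log2 fold change, si-SRSF11 over si-NC, of each tested gene of 7 pathway lists, in red for genes called higher, blue for genes called lower and grey for genes not called, with the 9 genes as outlined diamonds. SRXN1 and OSGIN1 lie farthest to the left at -0.998 and -0.95, and ABCC2 lies farthest to the right at 0.97.

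The genes whose log2 CPM followed a member most closely over the 6 libraries are given as a description, since all points share the same libraries and the same contrast between groups. Among 12233 protein-coding genes that averaged 1 CPM or more, SRXN1 was followed most closely by CPEB4 and SELENOI (Pearson r 0.9998 and 0.9983), and TXNRD1 by GPAT3 and ANXA1 (0.9996 and 0.9992). NQO1 was followed by BLVRB and GADD45A (0.9990 each), GCLM by KRT80 and SLC48A1 (0.9982 and 0.9967), and GCLC by SHB and YIPF4 (0.9977 and 0.9964). BLVRB and SLC48A1 are themselves on the list of NRF2 targets, as is CYP4F11, which followed AKR1C1 (0.9989) ahead of TRPV6 (0.9953). The closest genes had lower r for NFE2L2 (ISX 0.9947 and ACY3 0.9927), AKR1B10 (MPP7 0.9953 and ARL1 0.9906) and SLC7A11 (PPFIBP1 0.9913 and NUDT7 0.9890).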

How the data were processed

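Gene counts were deposited by the authors as 1 table of raw counts for 6 LoVo libraries (3 si-NC, 3 si-SRSF11), with no normalization, on genes of Ensembl 94 (GENCODE 29). Per the labels the build is hg38. The aligner and the counting program are not given in the sources used here. The samples were grouped by the deposited labels. Genes reaching 10 counts in 3 or more libraries entered a TMM-scaled fit by edgeR's quasi-likelihood method (version 4.0.16, R version 4.3.3), with Benjamini-Hochberg adjustment over all 15801 genes. The common biological coefficient of variation was 5.34%. The standard error came from the quasi-likelihood F statistic. TPM was computed from the counts and the gene lengths in the table, which count every exon base over all transcripts of a gene. Alternatives were DESeq2 (version 1.42.0), limma-voom (version 3.58.1), other scalings and filters, a fit restricted to protein-coding genes, a block for replicate number, and leaving out each library in turn.

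The members and the lists were chosen with earlier results of these data known. Named genes were the 9 members, SRSF11, up to 5 called genes per list with the smallest adjusted p, partner genes, and the 2 protein-coding genes most correlated with each member. Other names are marked where they appear.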

Additional observations from a re-analysis of the deposited data

How the results depend on the processing

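Across 15 alternative settings, NQO1, GCLC, GCLM, TXNRD1, SRXN1 and AKR1C1 were called lower in each, with log2 fold changes of -0.38 to -0.31, -0.41 to -0.35, -0.40 to -0.34, -0.51 to -0.46, -1.05 to -0.95 and -0.44 to -0.31. AKR1B10 was called in none (adjusted p 0.15 to 0.43), and no member reversed. NFE2L2 was no longer called with DESeq2 (0.13, adjusted p = 0.11), library size alone (0.10, 0.15), RLE factors (0.13, 0.059), upper quartile factors (0.13, 0.065), no filter (0.13, 0.11), protein-coding genes only (0.13, 0.067) and limma-voom (0.14, 0.052), so the number of members called higher was 0 in each of these. With 1 library left out its log2 fold change ran from 0.11 to 0.18, and the number of members called higher from 0 to 1. SLC7A11 ran from -0.20 to -0.11 with 1 library left out. The cause of these lost calls was not tested. Genes past an absolute log2 fold change of 1 numbered 101 with DESeq2 and 96 among protein-coding genes, which are fewer genes, beside 173. All calls over the transcriptome numbered 2741 to 3871 with 1 library left out. AKR1B10, the member with the fewest counts, had 159 to 187 a library and the largest standard error of the 9 (0.111).

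The study describes pairs of RNA samples, but no source used here says that the replicate numbers mark them. Deviations of same-numbered libraries correlated at 0.015, 0.036 and 0.040, although each library correlated best with its own number. With the replicate number as a block, 4036 genes were called (2147 higher and 1889 lower), and 7 members were called lower and 1 higher.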
